A study of Mus musculus with 13 samples.

Results

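The genes described here are 10 regulators that set how strongly a cell makes fatty acids and sterols: Srebf1 and Srebf2, Scap, Insig1 and Insig2, Mlxipl and Mlx, Nr1h2 and Nr1h3, and Mid1ip1. They were chosen by name for their roles, and all 10 have 1 entry among the 33618 genes of the count table and were among the 16753 genes with enough counts to test. RNA was sequenced from parametrial white adipose tissue (pmWAT), a gonadal fat depot, of 13 female mice. The controls were 7 Lmna fl/fl mice, which carry floxed Lmna alleles and no Cre. The other 6 were Lmna iADKO mice, which carry the same alleles and 1 copy of Adipoq-CreERT2, a tamoxifen-inducible Cre driven by the promoter of the adipocyte gene Adipoq. Mice of both genotypes received tamoxifen at 50 mg/kg on 5 consecutive days from 12 to 14 weeks of age, and tissue was collected 2 weeks afterwards. The comparison asks how expression in fat differs soon after lamin A/C, the nuclear lamina protein encoded by Lmna, is targeted in adipocytes.

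SREBP proteins, the products of Srebf1 and Srebf2, are made as precursors in the endoplasmic reticulum membrane. SCAP escorts them to the Golgi for cleavage when sterols are low, and the INSIG proteins hold SCAP back when sterols are high. ChREBP (Mlxipl) with its partner MLX responds to glucose metabolites, and the liver X receptors LXRβ (Nr1h2) and LXRα (Nr1h3) are bound by oxysterols and raise Srebf1 transcription. In fat, SREBP-1c and ChREBP are best known for driving the genes of fatty acid synthesis.

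The libraries held 18854223 to 19776491 counts each. Lmna itself, counted over the whole gene, was 84.7 ± 7.51 CPM (counts scaled to library size) in fl/fl (mean ± SD, n = 7) and 96.7 ± 11.5 CPM in iADKO (n = 6), a log2 fold change of 0.19 (SE 0.08) with an adjusted p of 0.0785 by edgeR's quasi-likelihood test. These counts cannot separate the floxed part from the rest of the gene, so they do not check the genotype, and every direction below rests on the labels "fl/fl" and "iADKO". All 8 adipocyte markers were lower in iADKO libraries, with a median log2 fold change of -0.78 and a summed level of 16349 to 25377 CPM in fl/fl and 10523 to 18227 CPM in iADKO. Macrophage markers were higher for 7 of 9, with summed levels of 2023 to 5683 CPM in fl/fl and 3406 to 5868 CPM in iADKO, and lymphocyte markers for 3 of 8, while 2 of 5 endothelial and 3 of 4 brown adipocyte markers were lower. No progenitor, mesothelial or skeletal muscle marker passed by that test, although 1 progenitor and 1 mesothelial marker had an unadjusted p below 0.05.

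Of the 10 regulators, 6 were lower in iADKO pmWAT, 1 was higher and 3 did not pass an adjusted p of 0.05. Across all genes tested, 16.3% were lower and 14.1% were higher by the same rule, 30.5% in either direction. Insig1, Mlxipl and Srebf1 fell the most and had CPM ranges that did not overlap between genotypes, which 6.64% of all genes did. For Insig1 the gap was narrow and depended on the normalization. Insig2, Mlx and Nr1h3 fell by smaller amounts, Srebf2 rose slightly, and Scap, Nr1h2 and Mid1ip1 did not pass. The sizes of the small changes also depend on the normalization. Its TMM factors ran from 0.892 to 1.018 in fl/fl and from 1.046 to 1.102 in iADKO, without overlap. A higher factor lowers CPM, so over plain library totals the small falls would be smaller and the Srebf2 rise larger. No such fit was run. DESeq2 size factors gave -0.35, -0.34 and -0.32 for Insig2, Mlx and Nr1h3, and 0.16 for Srebf2. Relative to adipocyte marker RNA, described further on, Insig2, Mlx and Nr1h3 were instead higher, as were 87.1% of all genes. Their values there lay below the median of all genes. In bulk tissue, fewer cells of a type and less RNA per cell cannot be told apart, and the part that the lower adipocyte markers play in these values was not tested.

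**Figure D1:**
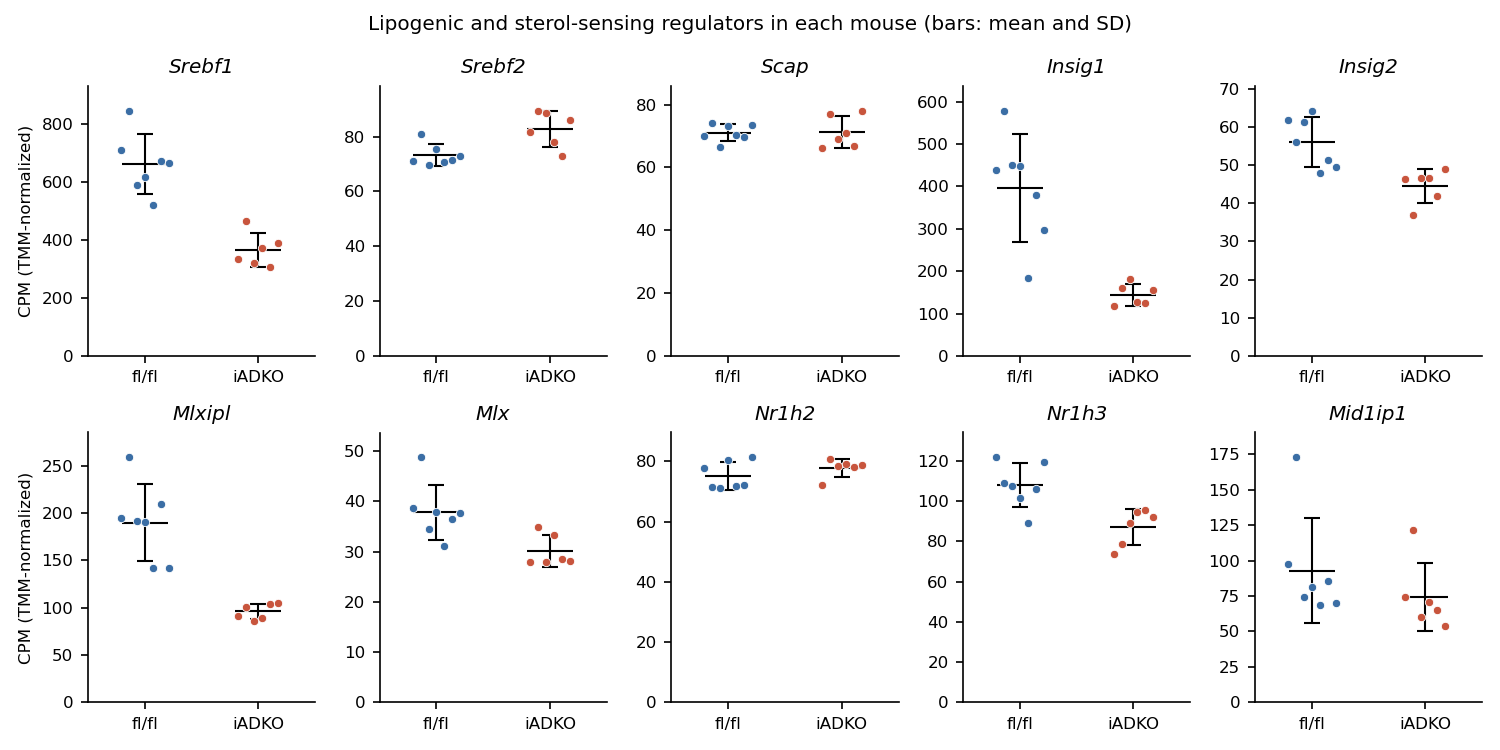
CPM of each regulator (vertical axes, starting at 0) in each of 7 fl/fl and 6 iADKO mice, with points for mice and bars for mean and SD. Srebf1 and Mlxipl separate the genotypes completely, Insig1 does so only narrowly, and the highest Mid1ip1 point of each genotype is a mouse numbered 2.

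Promoter sequences are shown for the 3 regulators whose ranges did not overlap, as they differed most between genotypes. RefSeq promoters, 250 bases before to 50 bases after a start, were given for all 10 regulators (17 promoters), and each matched GRCm39 exactly once. Capitals mark the motifs searched on both strands: TCACNCCAC (a sterol element), CACGTG (an E-box), CCAAT (the NF-Y site) and GGGCGG (a GC box).
Srebf1, chr11:60101248-60101547, minus strand: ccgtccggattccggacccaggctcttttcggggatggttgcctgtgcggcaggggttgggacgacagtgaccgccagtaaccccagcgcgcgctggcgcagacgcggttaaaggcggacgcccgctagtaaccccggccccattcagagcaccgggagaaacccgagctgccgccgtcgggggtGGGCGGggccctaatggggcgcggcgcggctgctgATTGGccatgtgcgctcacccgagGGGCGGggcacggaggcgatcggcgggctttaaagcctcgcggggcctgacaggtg
Insig1, chr5:28276160-28276459, plus strand: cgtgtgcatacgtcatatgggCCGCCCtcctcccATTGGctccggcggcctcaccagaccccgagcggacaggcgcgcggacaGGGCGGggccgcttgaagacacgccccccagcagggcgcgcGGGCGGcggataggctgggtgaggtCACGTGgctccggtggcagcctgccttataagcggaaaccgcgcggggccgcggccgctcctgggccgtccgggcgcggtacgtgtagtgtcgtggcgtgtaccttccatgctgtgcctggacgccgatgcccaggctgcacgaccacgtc
Mlxipl upstream start, chr5:135118494-135118793, plus strand: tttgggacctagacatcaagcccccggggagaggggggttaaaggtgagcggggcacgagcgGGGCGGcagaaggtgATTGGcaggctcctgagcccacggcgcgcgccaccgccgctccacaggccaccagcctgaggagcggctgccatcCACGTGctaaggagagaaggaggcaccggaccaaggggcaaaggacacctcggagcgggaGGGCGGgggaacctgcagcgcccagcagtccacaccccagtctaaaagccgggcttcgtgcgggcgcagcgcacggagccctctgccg
Mlxipl downstream start, chr5:135135495-135135794, plus strand: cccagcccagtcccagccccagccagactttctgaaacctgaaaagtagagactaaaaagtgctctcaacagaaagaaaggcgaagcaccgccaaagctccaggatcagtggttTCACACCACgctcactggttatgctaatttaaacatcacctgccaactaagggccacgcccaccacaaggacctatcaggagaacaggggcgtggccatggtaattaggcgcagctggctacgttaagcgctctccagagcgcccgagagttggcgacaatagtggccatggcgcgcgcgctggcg
The Srebf1 sequence is the most downstream of its 3 listed starts and holds 1 CCAAT match on the opposite strand and 2 GC boxes. Insig1 holds 1 E-box, 3 GC boxes and 1 CCAAT match. The Mlxipl starts lie 17001 bases apart, and the upstream promoter holds an E-box at position -98 while the downstream one holds the sterol element at -136, counted from the start. Of the 17 promoters, 1 held the sterol element against 1.24% of all 32851 promoters of the table, and 5 promoters of 4 regulators (Scap, Insig1, Mlxipl and Mlx) held the E-box against 7.15%. The Scap promoters overlap and share the same E-box, which is counted in both, and the Nr1h3 promoters overlap likewise. CCAAT was found in 7 (background 37.4%) and the GC box in 10 (background 35.7%), and no promoter held an exact pair of AGGTCA half-sites spaced by 4 bases (background 0.0152%). That exact pair is so rare that its absence from 17 promoters says nothing about LXR sites, and inexact pairs were not searched. These matches describe letters only. The counts are per gene, so they cannot tell SREBP-1a from SREBP-1c or the α and β forms of ChREBP, which begin at different first exons.

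Srebf1, which encodes SREBP-1, lies on chromosome 11 (60089913 to 60113407, minus strand, GRCm39). It ranged from 521 to 846 CPM with a median of 666 in fl/fl mice, and from 307 to 466 CPM with a median of 352 in iADKO mice. Every iADKO mouse lay below every fl/fl mouse. Its log2 fold change was -0.86 (SE 0.12, adjusted p = 0.000379, edgeR), or 55.2% of the control level. Among the mice whose animal numbers fall in a series that holds both genotypes, the difference in mean log2 CPM was -0.58 in one (2 fl/fl and 2 iADKO mice) and -0.84 in the other (3 and 2).

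Srebf2, which encodes the sterol-synthesis regulator SREBP-2, lies on chromosome 15 (82031382 to 82093201, plus strand). It ranged from 69.8 to 81.1 CPM (median 71.4) in fl/fl and from 72.8 to 89.5 CPM (median 83.9) in iADKO. The ranges overlapped, with 4 of 6 iADKO mice above every control. The log2 fold change was 0.18 (SE 0.06, adjusted p = 0.0279, edgeR), and within the 2 series it was 0.17 and 0.21. This call was lost without fl/fl replicate 1, 3 or 6 or iADKO replicate 2 or 3 (highest adjusted p = 0.0669, edgeR) and with animal series as a term (adjusted p = 0.105).

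Scap, the escort of SREBPs, lies on chromosome 9 (110158229 to 110214024, plus strand). It ranged from 66.4 to 74.2 CPM (median 70.2) in fl/fl and from 66.1 to 78.1 CPM (median 69.97) in iADKO, so the genotypes overlapped almost wholly. Its log2 fold change was 0.01 (95% interval -0.10 to 0.11, adjusted p = 0.944, edgeR), and its sign turned under other scalings.

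Insig1 and Insig2 encode the proteins that retain SCAP, and Insig1 is itself a target of SREBPs. Insig1 lies on chromosome 5 (28276315 to 28283668, plus strand) and ranged from 183 to 579 CPM (median 438) in fl/fl and from 117 to 183 CPM (median 141) in iADKO. The genotypes met but did not cross: fl/fl replicate 5, the lowest control, had 183.2 CPM and iADKO replicate 3, the highest, had 182.5 CPM. This order depends on the TMM normalization. As plain counts over the library total, fl/fl replicate 5 (3619 of 19443389) lay below iADKO replicate 3 (3793 of 19569221). The log2 fold change was -1.45 (SE 0.22, adjusted p = 0.000643, edgeR), the largest fall of the 10, and the within-series differences were -1.03 and -1.82.

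Insig2 lies on chromosome 1 (121181760 to 121260400, minus strand). It ranged from 48.0 to 64.3 CPM (median 56.1) in fl/fl and from 36.9 to 49.0 CPM (median 46.4) in iADKO. All but 1 of the iADKO mice lay below every control. Its log2 fold change was -0.33 (SE 0.08, adjusted p = 0.00933, edgeR), with -0.22 and -0.53 within series.

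Mlxipl, which encodes ChREBP, lies on chromosome 5 (135118744 to 135168615, plus strand). It ranged from 142 to 259 CPM (median 191) in fl/fl and from 85.7 to 105 CPM (median 95.99) in iADKO, with a wide gap between the genotypes. This was a log2 fold change of -0.98 (SE 0.13, adjusted p = 0.000273, edgeR), with -0.76 and -1.15 within series. The spread among mice was 21.3% of the mean in fl/fl and 8.63% in iADKO.

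Mlx, which encodes the partner ChREBP needs to bind DNA, lies on chromosome 11 (100978080 to 100983043, plus strand). It ranged from 31.1 to 48.8 CPM (median 37.7) in fl/fl and from 27.9 to 35.0 CPM (median 28.4) in iADKO, and 4 of 6 iADKO mice were below every control. This was a log2 fold change of -0.33 (SE 0.09, adjusted p = 0.0167, edgeR), with -0.16 and -0.36 within series. With animal series as a term it no longer passed (adjusted p = 0.128).

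Nr1h3, which encodes LXRα, lies on chromosome 2 (91014394 to 91033417, minus strand). It ranged from 89.2 to 122 CPM (median 108) in fl/fl and from 73.5 to 95.5 CPM (median 90.4) in iADKO. Of the iADKO mice, 3 of 6 lay below every control, and the lowest control was again fl/fl replicate 5. The log2 fold change was -0.31 (SE 0.08, adjusted p = 0.0111, edgeR), but the within-series differences were -0.03 and -0.57, and with animal series as a term the adjusted p was 0.0648.

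Nr1h2, which encodes the broadly expressed LXRβ, lies on chromosome 7 (44199036 to 44203406, minus strand). It ranged from 71.2 to 81.5 CPM (median 72.1) in fl/fl and from 72.1 to 80.9 CPM (median 78.6) in iADKO, and the iADKO values lay inside the control range. The fitted log2 fold change was 0.05 (95% interval -0.05 to 0.15, adjusted p = 0.431, edgeR).

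Mid1ip1, whose product promotes the assembly of acetyl-CoA carboxylase and is related to that of Thrsp, lies on chromosome X (10581240 to 10586013, plus strand). It ranged from 68.4 to 173 CPM (median 81.7) in fl/fl and from 54.2 to 121 CPM (median 67.8) in iADKO. In each genotype 1 mouse, numbered 2, stood well above the rest. The fitted log2 fold change was -0.32 (95% interval -0.85 to 0.20, adjusted p = 0.328, edgeR).

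Several regulators share sequence with neighbouring genes of the annotation. Mlx overlaps Psmc3ip by 1340 bases and Insig1 lies inside the antisense gene Gm26608, whose counts were 4.17% and 0.04% of those of Mlx and Insig1. Nr1h3 overlaps Acp2, which had 115% of its counts, by 280 bases, and Scap overlaps Ptpn23 by 53 bases. The strand setting of the counting was not given in the sources used here, so reads in these overlaps cannot be assigned with certainty.

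Levels were compared between genes as CPM per kb of exons. The length is the union of exons over all annotated transcripts, such as 12.8 kb over 49 transcripts for Scap. The order below depends on this length. In fl/fl mice Srebf1 was the highest at 112 ± 17.5, followed by Insig1 at 81.2 ± 25.9, Mid1ip1 at 37.5 ± 14.8, Mlxipl at 27.1 ± 5.77, Nr1h2 at 21.7 ± 1.31, Nr1h3 at 21.3 ± 2.15, Mlx at 17.7 ± 2.56, Insig2 at 9.46 ± 1.11, Srebf2 at 7.83 ± 0.42 and Scap at 5.56 ± 0.21 (SD, n = 7). Neighbours in this order overlapped in range except Mlx with Insig2 and Srebf2 with Scap. In iADKO mice Srebf1 stayed first at 61.8 ± 9.97, with a range above that of the next gene, Mid1ip1 at 29.9 ± 9.71. Insig1 followed at 29.6 ± 5.27, and Mlxipl at 13.7 ± 1.18 lay below Nr1h2 and, in mean, below Nr1h3 and Mlx, whose levels were 17.2 ± 1.78 and 14.1 ± 1.47 (SD, n = 6).

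**Figure D2:**
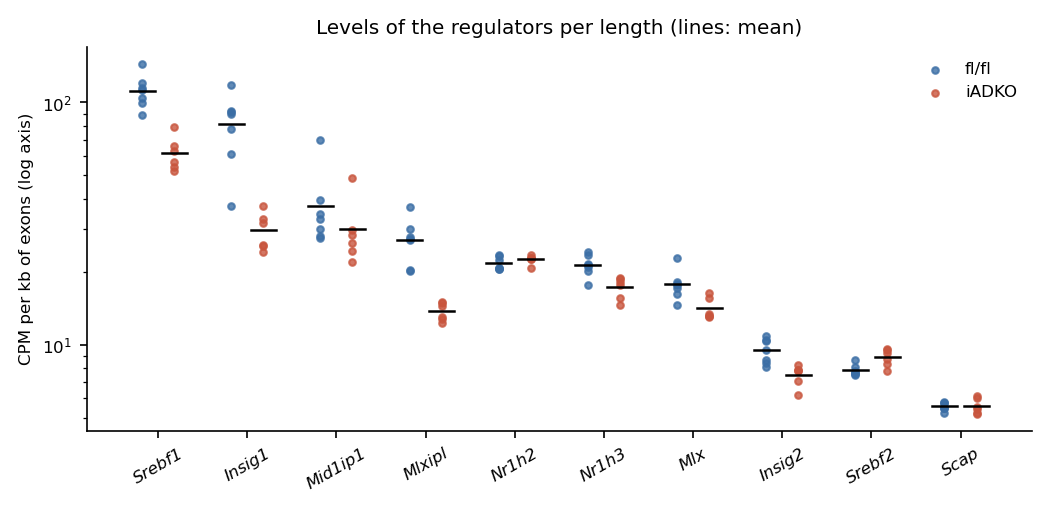
Levels as CPM per kb of exons (log axis) for the 10 regulators, ordered by their fl/fl mean, with a point per mouse and a line at each mean. Mlxipl moves from 27.1 in fl/fl to 13.7 in iADKO, while Scap stays near 5.6 in both.

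Related regulators were compared as a ratio within each mouse, in which library scaling cancels but for the small prior count. The log2 ratio of Srebf1 to Srebf2 was 3.16 ± 0.17 in fl/fl and 2.13 ± 0.18 in iADKO (SD), a difference of -1.03 with no overlap between genotypes (exact two-sided permutation test, p = 0.000583, the smallest these 13 mice allow, adjusted over 5 pairs 0.00219). The ratio of Insig1 to Insig2 differed by -1.07 (exact permutation p = 0.00233, adjusted 0.00233), with 4 of 6 iADKO mice below every control. The ratios of Mlxipl to Mlx and of Nr1h3 to Nr1h2 differed by -0.64 (exact permutation p = 0.00117, adjusted 0.00219) and -0.36 (p = 0.00175, adjusted 0.00219), each without overlap. In these 4 pairs the first-named gene therefore stood lower against its relative in iADKO tissue. The ratio differences largely restate the fold changes of the genes in each pair, and the pairs were chosen with earlier results known. The part that tissue makeup plays in the ratios was not tested. For Nr1h3 to Nr1h2 the within-series differences were uneven, at -0.09 and -0.62.

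The pair of Mid1ip1 and Thrsp went the other way. Thrsp, a lipogenic gene responsive to carbohydrate and thyroid hormone, had 807 to 2682 CPM in fl/fl and 456 to 731 CPM in iADKO, with a log2 fold change of -1.40 (SE 0.22, adjusted p = 0.000704, edgeR). The log2 ratio of Mid1ip1 to Thrsp was higher in iADKO by 1.04 (exact permutation p = 0.00175, adjusted 0.00219), with 5 of 6 iADKO mice above every control and differences of 0.36 and 1.78 within series.

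**Figure D3:**
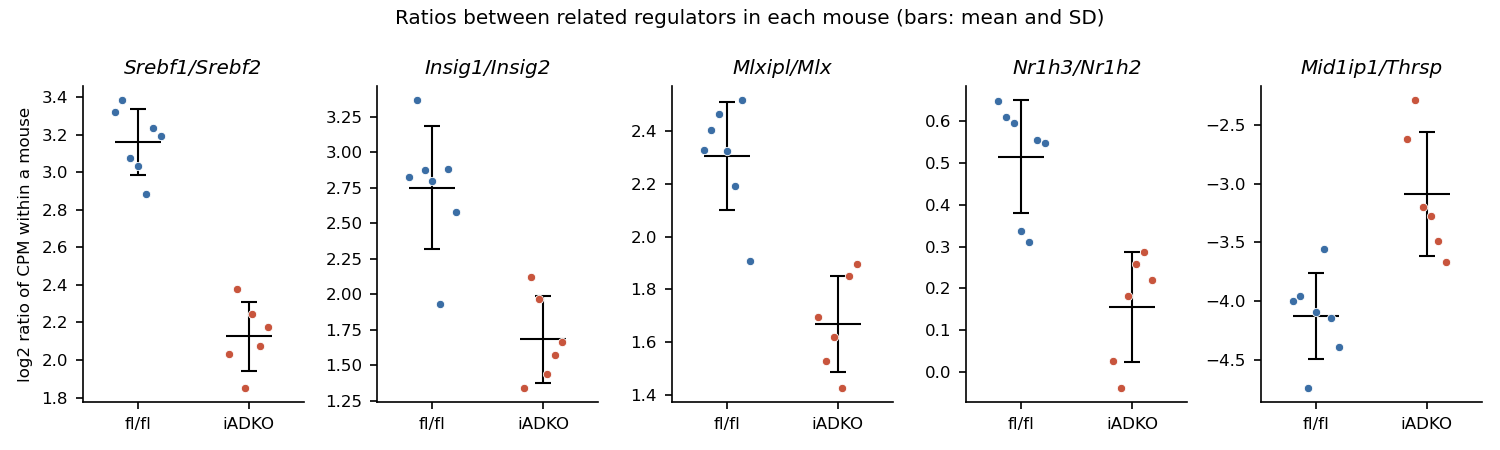
The log2 ratio of CPM between related genes in each mouse (vertical axes), by genotype, with bars for mean and SD. The Srebf1/Srebf2, Mlxipl/Mlx and Nr1h3/Nr1h2 ratios do not overlap between genotypes, and Mid1ip1/Thrsp is the pair that is higher in iADKO.

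Because the adipocyte markers were lower, the fit was repeated with libraries scaled to the geometric mean of those 8 markers. This moved the median log2 fold change of all genes from 0.03 to 0.85. It called 87.1% of genes higher and 0.615% lower, 87.7% in either direction. Read against 0, a value here is the change relative to the markers. Read against 0.85, it largely restates the first fit, as the scaling shifts all genes by a similar amount. The markers may themselves differ per adipocyte, which was not tested. On this scale Insig1 was the regulator that remained lower (-0.59, SE 0.17, adjusted p = 0.00417, edgeR). Srebf1 (-0.02, adjusted p = 0.894) and Mlxipl (-0.14, adjusted p = 0.371) did not pass, and neither did Mid1ip1 (0.54, adjusted p = 0.0618). Srebf2 (0.99), Nr1h2 (0.87) and Scap (0.81) lay near the median of all genes, and Nr1h3 (0.53), Mlx (0.51) and Insig2 (0.49) passed as higher yet lay below it.

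**Figure D4:**
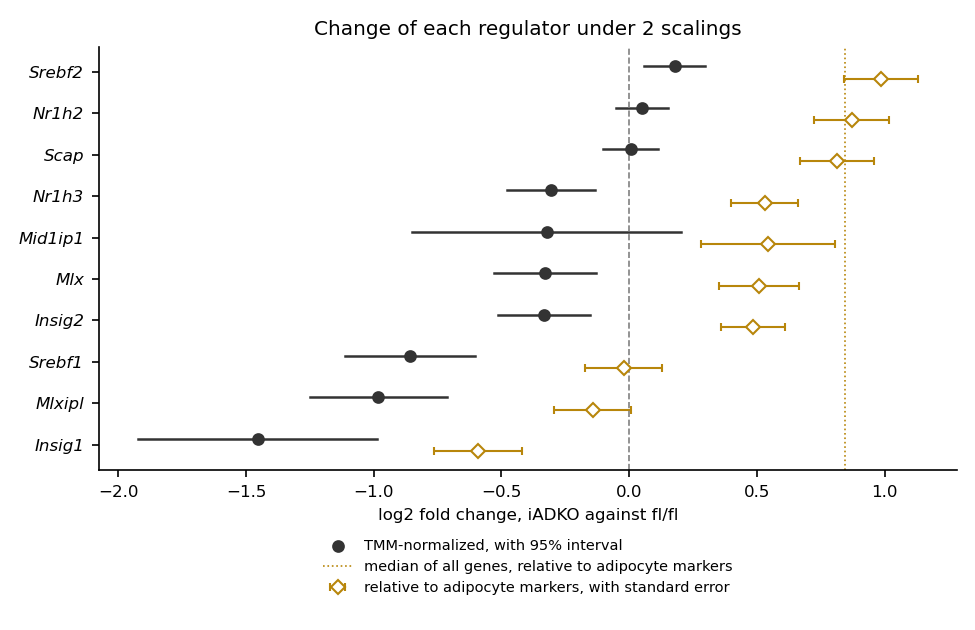
Log2 fold change of each regulator, iADKO against fl/fl (horizontal axis), with filled circles and 95% intervals for the TMM-normalized fit and open diamonds with standard errors for scaling to adipocyte markers. The dotted line marks the median of all genes on the second scale, 0.85, where Insig2, Mlx, Nr1h3 and Mid1ip1 turn from negative to positive and Insig1 stays negative at -0.59.

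When a macrophage marker score was added to the model as a covariate, 361 genes (2.15% of those tested) were called in all, and of the regulators Srebf1 (-0.71, adjusted p = 0.0423) and Mlxipl (-0.62, adjusted p = 0.0327) still passed (edgeR). For Insig1 this value was -0.73 on the log2 scale (adjusted p = 0.144, edgeR). The score was itself higher in iADKO, by 0.74 in mean log2 CPM, so it partly stands in for genotype. With it the standard error of Srebf1 went from 0.12 to 0.16. Where a call was lost in this fit, genotype and macrophage content cannot be told apart. With animal series as a term, where 11.9% of all genes were called, Srebf1, Insig1, Insig2 and Mlxipl passed, with adjusted p of 0.0154, 0.0154, 0.0363 and 0.0139 (edgeR).

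Of 11 genes whose products process or degrade SREBPs, 1 was higher and none was lower (edgeR), beside 14.1% and 16.3% of all genes. At an unadjusted p below 0.05, 3 were lower, and DESeq2 called 2 lower. Fbxw7, a ubiquitin ligase subunit that marks nuclear SREBPs for degradation, was the gene that rose (log2 fold change 0.24, SE 0.07, adjusted p = 0.0179). No gene of the list was higher (0 of 11) with no filter on low counts, with animal series as a term, with the macrophage score or with both mice numbered 2 left out. Without fl/fl replicate 5, 3 of the list were lower, and without fl/fl replicate 7, 1 was. On adipocyte-marker scaling all 11 were higher, as were 87.1% of all genes, with a median of 0.74 that lay below the 0.85 of all genes.

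Among 14 partners and cofactors of LXRs and MLX, 2 were lower and 3 were higher, beside 16.3% and 14.1% of all genes. Rxrg, a retinoid X receptor, fell by 0.45 on the log2 scale (SE 0.12, adjusted p = 0.0136, edgeR), and Ep300, a histone acetyltransferase, rose by 0.20 (SE 0.07, adjusted p = 0.0355). Mxd4, the most abundant, had -0.19 (adjusted p = 0.0709). In 8 of 13 fits that left out 1 mouse, 1 gene of the list was higher in place of 3, and 4 were lower without fl/fl replicate 7, by DESeq2 and with the replicate block. On adipocyte-marker scaling all 14 were higher, as were 87.1% of all genes, with a list median of 0.73 and Rxrg at 0.38, both below the 0.85 of all genes.

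Of 17 fatty acid synthesis targets of SREBP-1c and ChREBP, 16 were lower, beside 16.3% of all genes, with a median log2 fold change of -1.44 against 0.03 for all genes. With animal series as a term 12 were lower and with the macrophage score 6 were, where 11.9% and 2.15% of all genes were called in either direction. On adipocyte-marker scaling 11 were lower and 3 were higher, beside 0.615% and 87.1% of all genes, at a median of -0.61. Elovl6, a fatty acid elongase, fell by 2.60 (SE 0.37, adjusted p = 0.000573, edgeR), and Scd1, the stearoyl-CoA desaturase and the most abundant, went from 43304 ± 8656 CPM in fl/fl to 8795 ± 4448 CPM in iADKO (log2 fold change -2.30, adjusted p = 0.000244). Of 7 carbohydrate-response targets 5 could be tested and 2 were lower, among them Tkt (transketolase, -1.63, SE 0.23, adjusted p = 0.000468), while the glucose-responsive Txnip had 0.17 (adjusted p = 0.447). Tkt was also lower on adipocyte-marker scaling (-0.78), where 3 of the 5 were higher.

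Of 22 sterol targets tested, 11 were lower and 1 was higher, beside 16.3% and 14.1% of all genes, with a median of -0.63. On adipocyte-marker scaling 1 was lower and 10 were higher, beside 0.615% and 87.1% of all genes, at a median of 0.22 that lay below the 0.85 of all genes. Nsdhl, a late enzyme of cholesterol synthesis, fell by 1.29 (SE 0.22, adjusted p = 0.00122, edgeR), and was the gene still lower on that scaling (-0.43). Sc5d, the most abundant, fell by 0.96 (SE 0.19, adjusted p = 0.00288) but had -0.12 relative to adipocyte markers (adjusted p = 0.492). With animal series as a term 7 sterol targets were lower and 0 higher, and with the macrophage score 0 passed in either direction, where 11.9% and 2.15% of all genes were called (edgeR).

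Of 9 LXR targets, 1 was lower and 3 were higher, beside 16.3% and 14.1% of all genes, with a median of 0.23. Lpcat3, which remodels membrane phospholipids, fell by 0.50 (SE 0.08, adjusted p = 0.000865, edgeR) and had 0.34 relative to adipocyte markers, below the 0.85 of all genes. All 9 were higher on that scaling, as were 87.1% of all genes. Abcg1, a cholesterol exporter, rose from 48.0 ± 14.1 to 86.6 ± 17.1 CPM (log2 fold change 0.85, SE 0.18, adjusted p = 0.00385). Apoe, the most abundant, had 0.45 (adjusted p = 0.0812). Macrophage markers were higher in the same libraries, and their part in the LXR target values was not tested. With their score as a covariate 0 of 9 targets were called, beside 2.15% of all genes, and with animal series as a term 0 were higher (edgeR). Without fl/fl replicate 5, 6 targets were higher. Of 5 oxysterol enzymes tested none passed (edgeR; 1 had an unadjusted p below 0.05, and DESeq2 called 0), and Cyp27a1 had -0.03 (adjusted p = 0.789). Without fl/fl replicate 5, 1 oxysterol enzyme was higher, and 2 were without fl/fl replicate 7, without iADKO replicate 6 or with the replicate block.

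**Figure D5:**
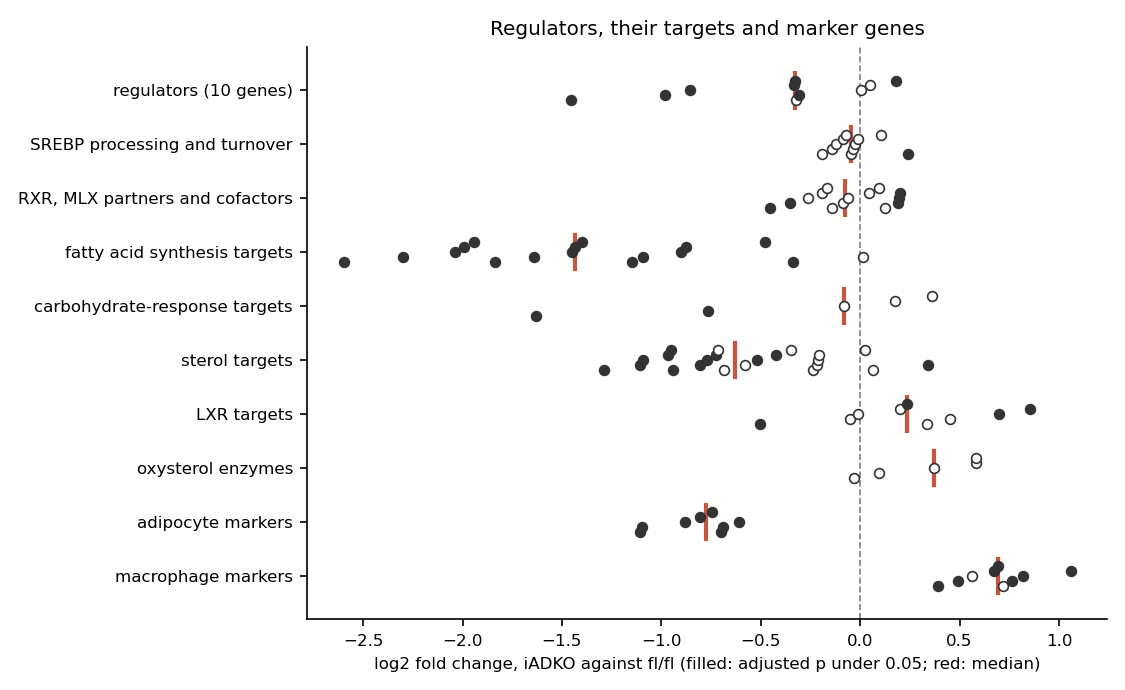
Log2 fold change, iADKO against fl/fl (horizontal axis), of each gene in the regulator, target and marker lists, filled where the adjusted p is below 0.05, with a red line at each list's median. Fatty acid synthesis targets lie furthest left, at a median of -1.44, and LXR targets to the right of 0, at 0.23. On adipocyte-marker scaling the sterol targets' median turns from -0.63 to 0.22 and that of the regulators from -0.33 to 0.52, beside 0.85 for all genes.

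The genes whose levels moved most like a regulator from mouse to mouse were found after removing each genotype's mean, over 13 mice and 10909 genes. For Srebf1 the closest was Mlx (Pearson r = 0.87), then Plekhh3 (0.84) and Bhlhe40 (0.82). For Mlxipl they were Polr2f (0.92), Shroom4 (0.91) and Gm12002 (0.89), and for Nr1h3 Bcs1l (0.93), Bzw2 (0.92) and Dnajc15 (0.91). Those near Insig1 included Hsd17b7 (0.94) and Pth1r (0.94). These are descriptions of the same 13 libraries, which share depth and tissue makeup. The highest of 10909 correlations over so few mice are large by selection alone, and none was tested. Among the regulators, Mlx and Mid1ip1 also ran together (0.87), and fl/fl replicate 2 was the highest control for Srebf1, Srebf2, Scap, Insig1, Mlxipl, Mlx and Mid1ip1. Likewise, iADKO replicate 2 was the highest iADKO mouse for Srebf1, Srebf2, Mlx, Nr1h2 and Mid1ip1. The correlations were not recalculated without these mice.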

How the data were processed

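RNA from whole pmWAT of 13 mice was sequenced as strand-specific libraries. The authors deposited raw counts per gene and a table of log2 (rlog) values; per the labels, reads were checked with FastQC 0.12.1 and aligned with STAR 2.7.11a to mm39. The counting tool and annotation are not given in the sources used here. Of 33618 identifiers, 33184 were found in GENCODE vM39, which gave names and coordinates (GRCm39).

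Counts were normalized by TMM, filtered with filterByExpr and compared between genotypes with edgeR 4.0.16 (quasi-likelihood test, R 4.3.3), with Benjamini-Hochberg adjustment over 16753 genes and a threshold of 0.05. limma 3.58.1 on the rlog values and DESeq2 1.42.0 on the counts were alternatives. Log2 CPM used a prior count of 2, and ratios were compared over all 1716 splits of the mice. The fits were tested on simulated data. The mice are the replicates, and precision is limited by their number. Animal-number series were grouped here from the animal numbers in the library names, and no label names a series or batch. Of 4 series, 2 hold both genotypes, 1 holds only 2 fl/fl mice and 1 holds only 2 iADKO mice. With series as a term, the mice of those last series do not inform the genotype difference.

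The regulators, lists, pairs and tests were chosen with earlier results of these data known. Named genes are the regulators, Lmna, Thrsp, each list's called gene with the largest fall, with the largest rise and its most abundant gene, and the 3 genes most like Srebf1, Mlxipl, Insig1 and Nr1h3 among genes whose mean log2 CPM reached 3. Motif sequences come from RefSeq promoters, given on GRCm38.p6 and placed on GRCm39 by exact match. A few genes that this rule names are not reported here.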

Additional observations from a re-analysis of the deposited data

Results flagged for a closer look

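Among 30 sets of values (each regulator and ratio in each genotype) 4 held a mouse that stood apart from its group by Dixon's test, at a level where chance marks 5% of sets. Mid1ip1 was 173 CPM in fl/fl replicate 2, where the next highest control had 97.8 CPM, and 121 CPM in iADKO replicate 2, where the next had 74.1 CPM. Mlx was 48.8 CPM in fl/fl replicate 2, with the next control at 38.6 CPM. Nr1h2 was 72.1 CPM in iADKO replicate 1, below the next lowest mouse at 78.2 CPM. With both mice numbered 2 left out, an alternative chosen after seeing the data, the same 6 regulators were lower and Srebf2 was higher.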

How the results depend on the processing

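Srebf1 and Mlxipl passed as lower in every TMM, DESeq2 and limma fit run, though not relative to adipocyte markers. Leaving out 1 mouse at a time gave 3998 to 6604 genes called, 6 regulators lower in each fit and 0 to 1 higher. No regulator was higher with no filter on low counts, with animal series as a block, with limma on the rlog values or with the macrophage score (0 in each). The genes called numbered 1986 with animal series as a block, 361 with the macrophage score, where 2 regulators were lower, and 3386 with both mice numbered 2 left out, against 5104. The log2 fold change of Scap turned negative with DESeq2 size factors (-0.0089), by DESeq2 (-0.012), with no filter (-0.0076), by limma (-0.011) and with both mice numbered 2 left out (-0.0056), and ran from -0.023 to 0.030 leaving out 1 mouse. Relative to adipocyte markers, Srebf1 was 0.041 with animal series as a block and ran from -0.15 to 0.043 leaving out 1 mouse. The cause was not tested.

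The residual correlation of same-numbered mice averaged 0.11, against -0.02 for other pairs, and was over 0.1 in 3 of 6 pairs; 2 of 6 iADKO mice were closest to their own number. As not every pair was over 0.1, the numbers were not taken as pairs. The same-numbered mice 3, 5 and 6 also lie in different animal-number series. Among them, numbers 5 and 6 had the highest correlations (0.22 and 0.20). A replicate block on those numbers gave 4833 called genes; Mid1ip1 passed (-0.36, adjusted p = 0.0118, edgeR) and Nr1h3 did not (adjusted p = 0.0645).

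Within the 2 animal series the ratio difference was -0.75 in one for Srebf1 to Srebf2, -0.085 and -0.62 for Nr1h3 to Nr1h2, and 0.36 and 1.78 for Mid1ip1 to Thrsp. Leaving out 1 mouse, the differences ran from -1.08 to -0.98 for Srebf1 to Srebf2, -1.20 to -0.96 for Insig1 to Insig2, -0.70 to -0.59 for Mlxipl to Mlx, -0.39 to -0.32 for Nr1h3 to Nr1h2 and 0.88 to 1.15 for Mid1ip1 to Thrsp.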
